A study of Mus musculus with 9 samples.

Results

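The BCL2 family decides whether a cell keeps its mitochondria intact or undergoes apoptosis, and 10 of its genes were followed here out of 23361 genes measured. The members were taken by their gene symbols and comprise Bcl2, Bcl2l1, Bcl2l2, Mcl1, Bcl2l11, Bmf, Bik, Bid, Bak1 and Bad. RNA came from mouse skin cells that were purified by flow cytometry and carry the label of melanocyte stem cells, the hair follicle reserve from which pigment cells are renewed. There were 3 groups of 3 libraries, labelled Quiescent, Active and UVB, the last after the medium-wave ultraviolet band. All 9 shared the genotype TBPT, an age of 10 weeks after birth and a treatment label that names both chemical hair removal and UVB exposure. The labels neither expand TBPT nor say which group received which treatment. They also do not say whether replicates came from separate mice, so p-values measure only the spread between these libraries, which may be technical.

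Proteins of the family fall into classes that bind one another on the outer mitochondrial membrane. Survival members (BCL2, BCL-XL from Bcl2l1, BCL-W from Bcl2l2, and MCL1) hold the pore-forming effectors BAX and BAK in check. BH3-only members such as BIM (from Bcl2l11), BMF, BIK, BID and BAD sense stress, and either neutralise the survival members or activate the effectors directly. In the melanocyte lineage Bcl2 is known as a target of the transcription factor MITF, and mice without it turn grey because their melanocyte stem cells are lost.

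Libraries held 21045071 to 35131778 fragments assigned to genes, and 15078 genes had enough to be tested. The labelled cell type was checked against its markers. The 8 melanocyte lineage markers summed to 74.3 to 120 CPM (counts per 1e+06 of the scaled library total) in Quiescent, 7651 to 12450 CPM in Active and 841 to 1030 CPM in UVB. They did not all differ alike. Against Active, 7 were lower in UVB, while Sox10 was not called, at 473.4 CPM in UVB and 590.8 in Active. Against Quiescent, 6 were higher in UVB. Mlana and Mitf were not called there, at 6.71 and 27.3 CPM in UVB and 6.42 and 55.0 in Quiescent. The 6 dermal fibroblast markers summed to 333900 to 450700 CPM in Quiescent, 4746 to 6034 CPM in Active and 21800 to 33990 CPM in UVB. The libraries labelled Quiescent thus carried little melanocyte RNA beside their collagen and other fibroblast transcripts, and none of these 14 markers was at 0 in any library. Endothelial, smooth muscle and myeloid markers also differed between groups, and mast cell and T cell markers were higher in UVB than in both other groups. The UVB libraries held 23353 to 30356 fragments of Xist, expressed from the inactive X chromosome, against 4 to 12 elsewhere, and 0 to 2 fragments of 4 Y-linked genes, against 4106 to 5591. The UVB label and this sex-linked difference cannot be told apart. In such bulk samples fewer cells of a type and less RNA per cell cannot be told apart either, and the part of these other cell types in the differences below was not tested.

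Promoter sequence is shown for 3 members. Bcl2 and Bcl2l1 are shown because their transcripts rose together at a nearly fixed ratio, and Bcl2l11 because it held the 1 match to a forkhead motif among the members. The sequences are 250 bases upstream of a RefSeq transcription start on the gene's own strand, from RefSeq on the mouse build GRCm38.p6, which is the mm10 build of the deposited files. Capitals mark GTAAACA, the core letters bound by forkhead factors such as FOXO3, which are known to raise Bcl2l11.
Bcl2, chr1:106714291-106714540, minus strand: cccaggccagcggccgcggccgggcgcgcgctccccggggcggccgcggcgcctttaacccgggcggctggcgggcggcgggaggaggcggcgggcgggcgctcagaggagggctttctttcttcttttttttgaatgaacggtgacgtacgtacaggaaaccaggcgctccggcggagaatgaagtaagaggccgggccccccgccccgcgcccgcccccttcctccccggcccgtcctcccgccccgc
Bcl2l1, chr2:152831729-152831978, minus strand: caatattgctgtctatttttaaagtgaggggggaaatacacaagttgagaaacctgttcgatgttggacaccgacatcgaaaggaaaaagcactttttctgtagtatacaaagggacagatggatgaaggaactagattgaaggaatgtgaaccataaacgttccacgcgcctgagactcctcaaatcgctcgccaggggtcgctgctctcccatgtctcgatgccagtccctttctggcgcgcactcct
Bcl2l11, chr2:128125788-128126037, plus strand: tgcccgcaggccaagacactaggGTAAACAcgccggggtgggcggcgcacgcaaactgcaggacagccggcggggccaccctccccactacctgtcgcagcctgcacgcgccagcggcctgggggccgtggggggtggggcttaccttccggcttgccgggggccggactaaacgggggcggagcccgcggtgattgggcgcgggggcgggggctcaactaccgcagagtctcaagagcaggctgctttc
The Bcl2 window was rich in CpG, with a GC content of 74.8% and 36 CpG dinucleotides, and the Bcl2l11 window was similar with 72.0% and 24. The Bcl2l1 window, in front of 1 of its 3 RefSeq starts, had 47.6% and 12. Over all 32851 windows of this length the median was 52.4% GC and 6 CpG.

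Motifs were searched on both strands in 15 windows of 9 members, since no RefSeq window was matched for Bik. The E-box CACGTG, the letters best known for MITF, was in 6.02% of all windows and in 0 of the 15. The variant E-box CATGTG was in 12.3% of all windows and in 1 of the 15, an exonic window of Bcl2l1 that is not printed. GTAAACA was in 3.17% of all windows and in 1 of the 15, the Bcl2l11 window above. These matches describe letters in the windows and say nothing about binding.

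All 10 members had enough fragments to be tested. Active was compared with Quiescent to ask how the family differs between cells labelled as active and as quiescent. Bcl2, Bcl2l1, Bik and Bak1 were higher in Active by 2.14 to 4.21 times, and Bcl2l2, Mcl1, Bmf and Bid were lower by 1.25 to 2.98 times. Bcl2l11 and Bad did not pass the test. These 4 higher and 4 lower calls among 10 members stand against 29.1% and 29.2% of all genes tested, or 58.3% in either direction, from edgeR's quasi-likelihood test at an adjusted p of 0.05. The members' median log2 fold change was -0.28, beside 0.01 over all genes. Without any overlap between the groups' libraries were 4 higher and 3 lower members, beside 33.5% and 32.7% of all genes, or 66.2% on either side.

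UVB was compared with Quiescent to ask the same of the cells labelled UVB. Bcl2, Bcl2l1 and Bak1 were higher by 1.68 to 3.67 times, while Bcl2l2, Mcl1, Bmf, Bid and Bad were lower by 1.33 to 2.84 times. Bcl2l11 and Bik were not called. Over all genes 25.8% were called higher and 23.2% lower, or 49.0% in either direction. All 8 called members were also without overlap between the groups' libraries, as were 30.2% of all genes on the higher and 27.4% on the lower side, 57.6% in all. The members' median log2 fold change was -0.45, beside 0.02 over all genes. Both comparisons share the Quiescent libraries, so they are not independent of each other.

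**Figure D1:**
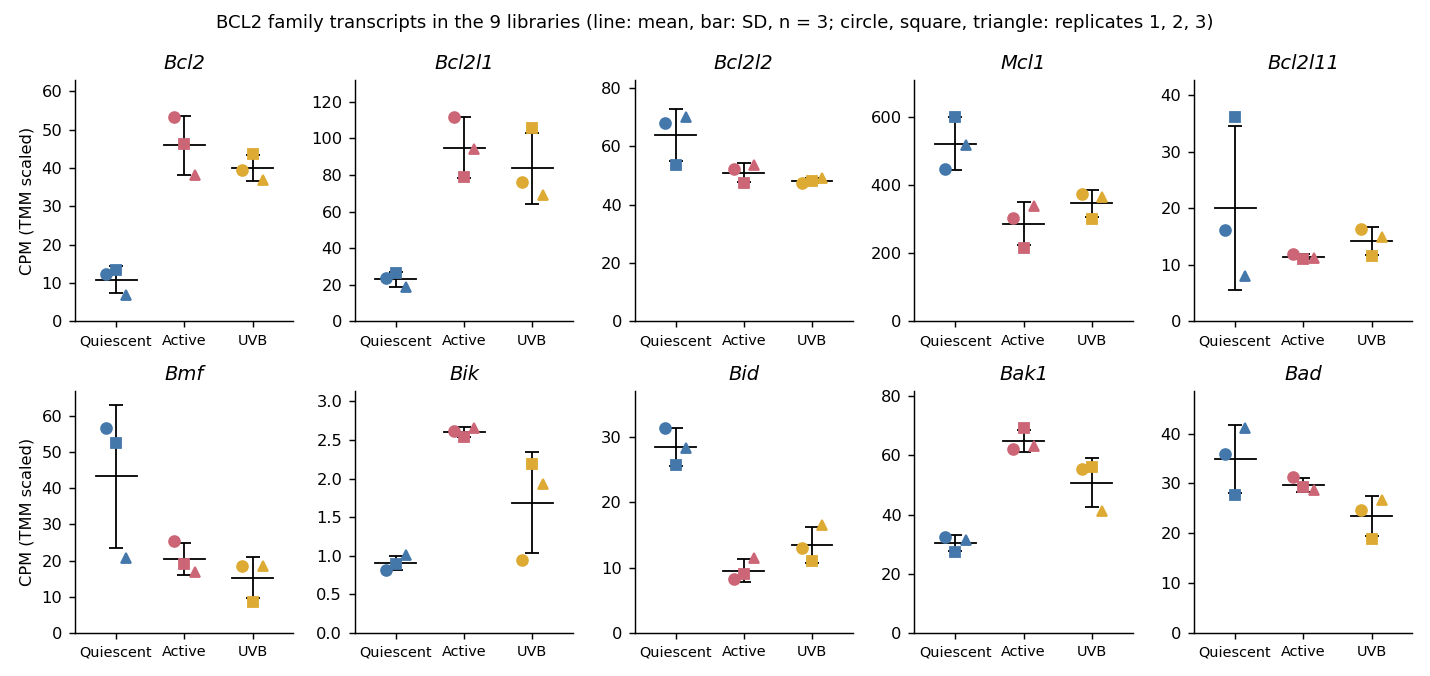
Level of each member in CPM (vertical axis, linear from 0, TMM scaled) in the 3 groups, with replicates 1, 2 and 3 as circle, square and triangle, the mean as a line and the SD as a bar (n = 3). Bcl2 and Bcl2l1 reach at most 26.7 CPM in Quiescent libraries and at least 36.9 CPM in the others, Bid is highest in the Quiescent libraries, and Bcl2l11 and Bmf scatter widely within Quiescent.

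Among the survival members, Bcl2 and Bcl2l1 rose and Mcl1 and Bcl2l2 fell. Bcl2, named for B-cell lymphoma and the founding survival member, lies at chr1:106538176-106714290 on the minus strand (GRCm38.p6). It stood at 12.4, 13.5 and 6.79 CPM in Quiescent replicates 1, 2 and 3, at 53.4, 46.2 and 38.1 CPM in Active, and at 39.5, 43.6 and 36.9 CPM in UVB. Every Active and UVB library was above every Quiescent library, and the ranges of Active and UVB overlapped. Its log2 fold change was 2.07 ± 0.25 (SE, n = 3 libraries per group) in Active against Quiescent (edgeR adjusted p = 0.000131) and 1.88 ± 0.24 in UVB against Quiescent (edgeR adjusted p = 0.000374).

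Bcl2l1 encodes BCL-XL, a survival member that binds BAK, and lies at chr2:152758732-152833803 on the minus strand. Its levels were 23.8, 26.7 and 18.6 CPM in Quiescent, 111.8, 78.9 and 94.0 CPM in Active, then 76.2, 105.7 and 68.8 CPM in UVB. Again no Quiescent library reached the others, and Active and UVB overlapped. The log2 fold changes were 2.04 ± 0.21 for Active (edgeR adjusted p = 6.34e-05) and 1.86 ± 0.21 for UVB (edgeR adjusted p = 0.000187), both against Quiescent. The calls of Bcl2 and Bcl2l1 held in all 19 alternative settings in both comparisons.

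Mcl1 encodes a survival protein of short half-life and lies at chr3:95656944-95663179 on the plus strand. It stood at 447.2, 602.0 and 518.0 CPM in Quiescent, 305.0, 216.4 and 338.6 CPM in Active, then 374.2, 301.8 and 364.4 CPM in UVB. The Quiescent libraries were the highest throughout, without overlap with either other group. It fell 1.82-fold in Active, with a log2 fold change of -0.87 ± 0.19 (edgeR adjusted p = 0.00405), and 1.51-fold in UVB, with -0.59 ± 0.19 (edgeR adjusted p = 0.0296). The UVB call was lost without Quiescent replicate 2 or 3 or UVB replicate 1 or 2, with edgeR adjusted p from 0.0547 to 0.0957. Scaled by library size alone, Mcl1 differed by -0.12 in Active and by 0.13 in UVB on the log2 scale, with neither called.

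Bcl2l2 encodes BCL-W and lies at chr14:54883366-54890858 on the plus strand. It was the steadiest survival member, at 67.8, 53.7 and 70.1 CPM in Quiescent, 52.0, 47.4 and 53.4 CPM in Active, then 47.4, 48.0 and 49.0 CPM in UVB. All Active and UVB libraries lay below all Quiescent libraries, although Quiescent replicate 2 came within 1 CPM of Active replicate 3. Its log2 fold changes were -0.33 ± 0.12 in Active (edgeR adjusted p = 0.0358) and -0.41 ± 0.12 in UVB (edgeR adjusted p = 0.0173), but 0.43 and 0.32 when scaled by library size alone. The Active call was lost in 7 of the 9 fits that left out a library (edgeR adjusted p from 0.0511 to 0.131), and the UVB call without Quiescent replicate 1 or UVB replicate 1 (0.059 and 0.0594).

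**Figure D2:**
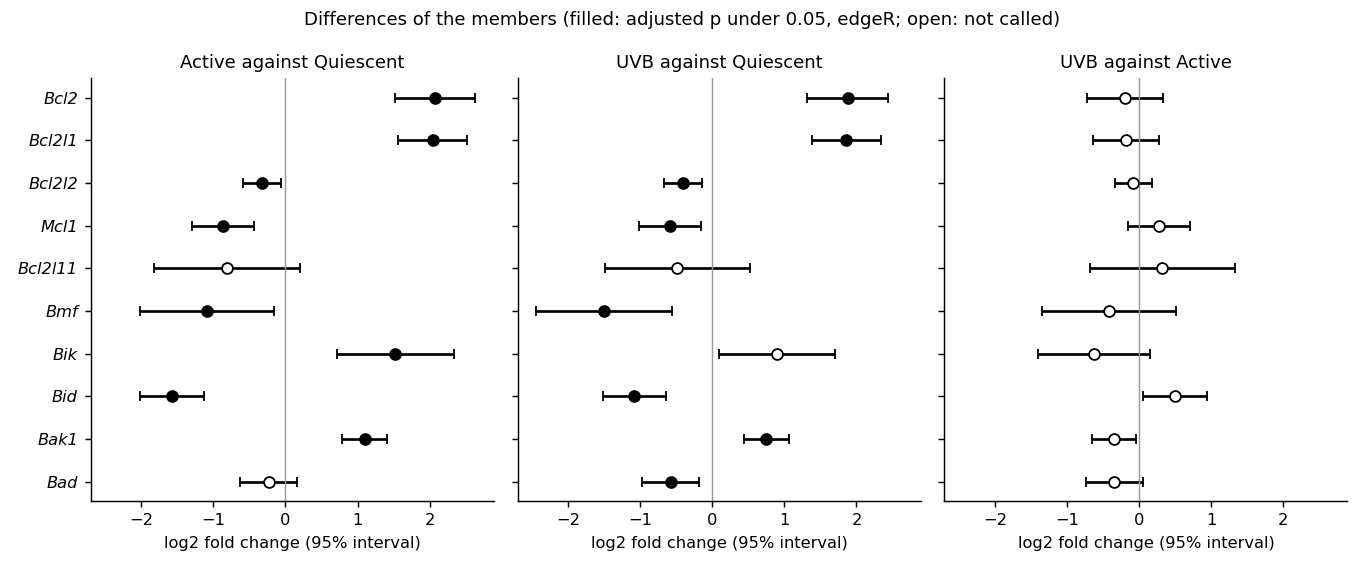
Log2 fold change of each member with its 95% interval (horizontal axis) in the 3 comparisons, filled where edgeR's adjusted p was under 0.05 and open otherwise. Bcl2 and Bcl2l1 lie near 2 against Quiescent with TMM scaling, Bid lies lowest in Active, and all 10 points are open in UVB against Active.

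The BH3-only members did not move as 1 class. Bid, which caspase 8 cleaves to link death receptors to mitochondria, lies at chr6:120893119-120917062 on the minus strand. It stood at 31.4, 25.7 and 28.4 CPM in Quiescent, at 8.19, 8.99 and 11.5 CPM in Active, and at 12.9, 10.99 and 16.5 CPM in UVB. All Quiescent libraries were above all others. It fell 2.98-fold in Active (log2 fold change -1.58 ± 0.20, edgeR adjusted p = 0.000169) and 2.12-fold in UVB (-1.08 ± 0.19, edgeR adjusted p = 0.00191). By library size alone it still fell in Active (-0.83, edgeR adjusted p = 0.00349), while in UVB it was at -0.36 and not called (edgeR adjusted p = 0.121).

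Bmf, a BH3-only sensor tied to the cytoskeleton, lies at chr2:118528757-118549686 on the minus strand. Its levels were 56.7, 52.6 and 20.6 CPM in Quiescent, 25.4, 18.9 and 16.8 CPM in Active, then 18.6, 8.63 and 18.5 CPM in UVB. Quiescent replicate 3 lay within the Active range and above every UVB library. The log2 fold changes were -1.09 ± 0.41 in Active (edgeR adjusted p = 0.0469) and -1.51 ± 0.42 in UVB (edgeR adjusted p = 0.0155). The Active call was lost in 7 of the 9 fits that left out a library (edgeR adjusted p from 0.054 to 0.146), and the UVB call without Quiescent replicate 1 (0.0539). By library size alone neither was called, at -0.36 (edgeR adjusted p = 0.472) and -0.81 (0.128).

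Bcl2l11, the gene of BIM, lies at chr2:128126038-128162547 on the plus strand, and it varied most within Quiescent. It stood at 16.1, 36.2 and 7.97 CPM there, at 11.9, 11.1 and 11.3 CPM in Active, and at 16.3, 11.6 and 14.9 CPM in UVB. Quiescent replicate 2 was the highest library and Quiescent replicate 3 the lowest, so the Active and UVB values fell inside the Quiescent range. The log2 differences were -0.81 (95% interval -1.82 to 0.20, edgeR adjusted p = 0.147) in Active and -0.49 (-1.50 to 0.52, edgeR adjusted p = 0.389) in UVB. Both the libraries included and the scaling moved these values. By library size alone they were -0.10 and 0.19, neither called. Without Quiescent replicate 2 they were -0.08 and 0.24, and without Quiescent replicate 3 the Active difference was -1.19 and passed the test (edgeR adjusted p = 0.0127). The 5 myeloid markers summed to 816.1 CPM in Quiescent replicate 2 and to 111 and 152 CPM in the other Quiescent libraries. Their part in the Bcl2l11 level was not tested.

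Bad, a BH3-only protein that AKT holds inactive by phosphorylation, lies at chr19:6941861-6951905 on the plus strand. It stood at 35.9, 27.7 and 41.2 CPM in Quiescent, 31.3, 29.2 and 28.6 CPM in Active, then 24.7, 18.9 and 26.6 CPM in UVB. The Active values fell within the Quiescent range, and the UVB values lay below both groups. Bad fell 1.49-fold in UVB against Quiescent (log2 fold change -0.58 ± 0.18, edgeR adjusted p = 0.0235) but stood at 0.15 by library size alone. That call was lost without Quiescent replicate 1 or 3 or UVB replicate 1 or 2 (edgeR adjusted p from 0.0504 to 0.0735). In Active the difference was -0.23 (95% interval -0.63 to 0.16, edgeR adjusted p = 0.279), and 0.53 by library size alone (edgeR adjusted p = 0.0143).

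Bik, a BH3-only protein of the endoplasmic reticulum, lies at chr15:83526790-83544635 on the plus strand and was the least abundant member by CPM. Quiescent libraries gave 21, 15 and 17 fragments, Active libraries 84, 70 and 65, and UVB libraries 30, 64 and 57. These came to 0.82, 0.89 and 1.004 CPM, then 2.62, 2.54 and 2.66 CPM, and 0.95, 2.19 and 1.92 CPM. Active was above every library of the other groups, and UVB replicate 1 lay inside the Quiescent range. Bik rose 2.87-fold in Active (log2 fold change 1.52 ± 0.36, edgeR adjusted p = 0.00576). In UVB it was at 0.90 (95% interval 0.09 to 1.70, edgeR adjusted p = 0.0648), and without UVB replicate 1 at 1.184 with a call (edgeR adjusted p = 0.019).

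Bak1 encodes the effector BAK, which forms the pore in the mitochondrial membrane, and lies at chr17:27019812-27028627 on the minus strand. Its levels were 32.3, 27.4 and 31.3 CPM in Quiescent, 62.2, 69.3 and 63.2 CPM in Active, then 55.5, 55.9 and 41.1 CPM in UVB. The 3 groups did not overlap, with Active highest and Quiescent lowest. Bak1 rose 2.14-fold in Active (log2 fold change 1.10 ± 0.14, edgeR adjusted p = 0.000182) and 1.68-fold in UVB (0.75 ± 0.14, edgeR adjusted p = 0.00225), and both calls held in all 19 alternative settings.

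UVB against Active asks how the family differs between the 2 groups that both stood apart from Quiescent. No member passed the test, against 14.8% of all genes called higher and 9.19% called lower, and DESeq2 also called 0. An unadjusted p under 0.05 was found for 2 members by either tool, which in edgeR were Bid and Bak1. Bid was higher in UVB by 0.50 on the log2 scale (95% interval 0.06 to 0.93, edgeR adjusted p = 0.0935) and Bak1 was at -0.35 (-0.66 to -0.04, edgeR adjusted p = 0.0914). The UVB libraries of Bik, Bak1 and Bad lay below all Active libraries, 3 of 10 members beside 21.7% of all genes lower without overlap, 25% higher and 46.7% in all.

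The intervals show what size of difference this comparison leaves. For Bcl2 the UVB minus Active difference was -0.20 (95% interval -0.73 to 0.33, edgeR adjusted p = 0.573) and for Bcl2l1 -0.18 (-0.64 to 0.28, edgeR adjusted p = 0.546). Bcl2l2 had the narrowest interval, -0.34 to 0.18, and Bcl2l11 the widest, -0.68 to 1.33. Mcl1 stood at 0.27 (-0.15 to 0.70), Bmf at -0.42 (-1.35 to 0.51), Bik at -0.63 (-1.40 to 0.15) and Bad at -0.34 (-0.74 to 0.05). A missing call therefore does not show that the 2 groups were equal.

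Levels of different members were compared as the authors' FPKM, fragments scaled for transcript length and, between libraries, by the authors' own factors. The order within a group does not depend on those factors, but differences in FPKM between groups do. Mcl1 led in every group, with 153 ± 21.7 FPKM (SD, n = 3) in Quiescent, 83.5 ± 17.8 in Active and 100 ± 9.64 in UVB. In Quiescent it was followed by Bad at 26.9 ± 5.35 FPKM, and both stood apart from their neighbours in the order. Bcl2l2, Bid and Bak1 came next with overlapping ranges, and Bcl2l1, at 10.2 FPKM, was only sixth. In Active and UVB, Bcl2l1 was second with 41.9 ± 7.18 and 36.7 ± 9.37 FPKM, overlapping the third, Bak1, with 34.5 and 26.8 FPKM.

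The lower end of the order changed as well. Bcl2 was ninth in Quiescent at 1.66 FPKM, sixth in Active at 6.63 and seventh in UVB at 5.73. Its Active range overlapped that of Bid, at 5.41 FPKM. By mean, the last place was held by Bik in Quiescent and UVB, at 1.175 and 2.16 FPKM, and by Bcl2l11 in Active, at 2.29 FPKM. In Quiescent the range of Bcl2 overlapped those of Bcl2l11 and Bik. In UVB the ranges of Bmf, Bcl2l11 and Bik overlapped, so the last places in these groups are not settled. In Active, Bcl2l11 lay below Bik without overlap.

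Shares of the members' summed FPKM compare them within a library and do not depend on scaling between libraries. The sum itself was 243.8 to 274.5 FPKM in Quiescent, 193.9 to 234.3 in Active and 211 to 224 in UVB. Unlike the shares, this sum depends on the authors' scaling between libraries, so its order between the groups is not read as a result. Mcl1 took 54.0%, 63.7% and 59.8% of it in Quiescent, 38.0%, 32.8% and 42.4% in Active, then 48.1%, 41.4% and 48.9% in UVB. Quiescent lay above both other groups. Bcl2l1 took 4.35%, 4.28% and 3.25% in Quiescent, 21.1%, 18.1% and 17.8% in Active, then 14.8%, 22.0% and 14.0% in UVB. The 4 survival members together took 67.3% to 74.5% in Quiescent, 61.6% to 69.4% in Active and 71.7% to 73.0% in UVB. Quiescent overlapped both other groups in this sum, while the shares of Mcl1 and Bcl2l1 in it did not overlap between Quiescent and the rest.

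**Figure D3:**
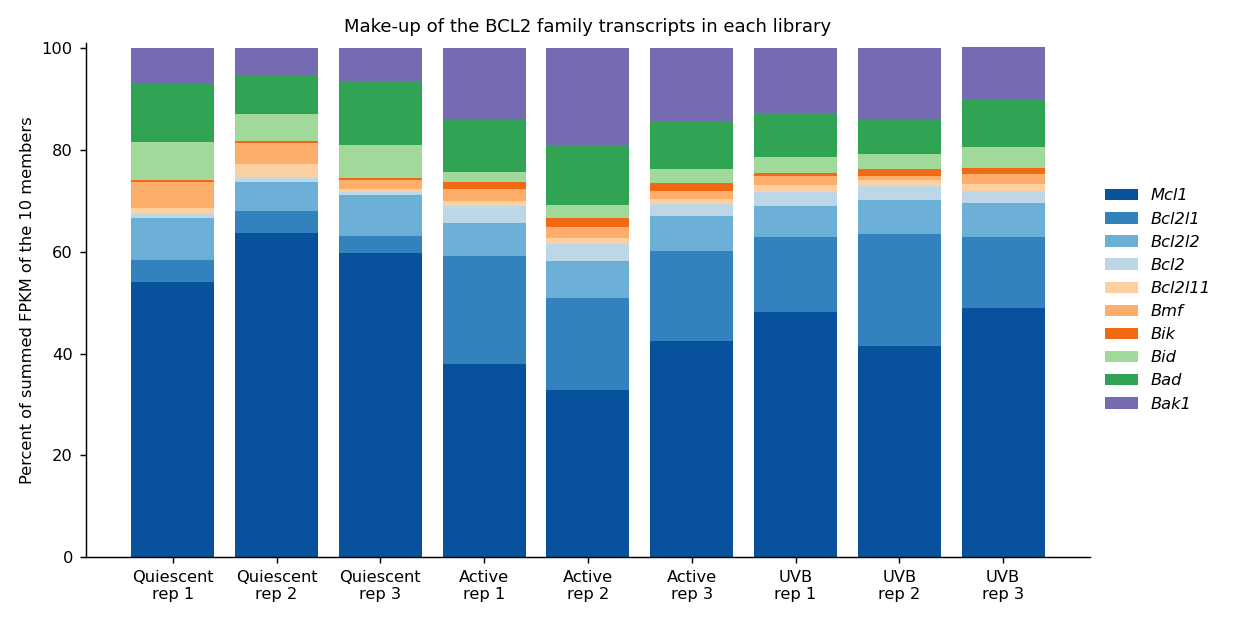
Stacked bars from 0 to 100 give each member's percent of the summed FPKM of the 10 members in each of the 9 libraries. The Mcl1 segment takes 54.0% to 63.7% of the Quiescent bars and 32.8% to 48.9% of the others, and the Bcl2l1 segment 3.25% to 4.35% against 14.0% to 22.0%.

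Among death-promoting members, Bak1 and Bid took similar shares in Quiescent and unlike shares in the other groups. Bid took 7.37%, 5.29% and 6.38% of the sum in Quiescent, 1.98%, 2.65% and 2.79% in Active, then 3.24%, 2.93% and 4.29% in UVB. Bak1 took 7.12%, 5.28% and 6.59%, then 14.1%, 19.2% and 14.4%, and 13%, 14.0% and 10.1%. Their FPKM ratio, Bid over Bak1, was 0.967 to 1.04 in Quiescent, 0.138 to 0.194 in Active and 0.209 to 0.427 in UVB, so the 3 groups were apart.

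Ratios between survival members showed which of them moved together. Bcl2l1 over Mcl1 was 0.0544 to 0.0806 in Quiescent, 0.42 to 0.555 in Active and 0.286 to 0.53 in UVB, where Active and UVB overlapped. Bcl2 over Bcl2l1 was 0.122 to 0.192 in Quiescent, 0.139 to 0.187 in Active and 0.132 to 0.175 in UVB, and the 3 ranges overlap. Bcl2 and Bcl2l1 are the members whose promoter windows are printed above.

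Ratios of a survival member to a death-promoting member were taken for a few chosen pairs, and these also differed from Quiescent. Other such pairs are not given, so the ratios below do not describe the classes as a whole. Bcl2 over Bcl2l11 was 0.312 to 0.619 in Quiescent, 2.56 to 3.17 in Active and 1.77 to 2.67 in UVB. Bcl2 over Bmf was 0.138 to 0.225, 1.38 to 1.60 and 1.33 to 3.31, and Bcl2l1 over Bad was 0.261 to 0.555, 1.56 to 2.06 and 1.49 to 3.23. These 3 ratios were lower in every Quiescent library. Mcl1 over Bak1 ran the other way, at 7.58 to 12.1 in Quiescent, 1.71 to 2.94 in Active and 2.96 to 4.86 in UVB. All ratios are of RNA and give no amount of protein.

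**Figure D4:**
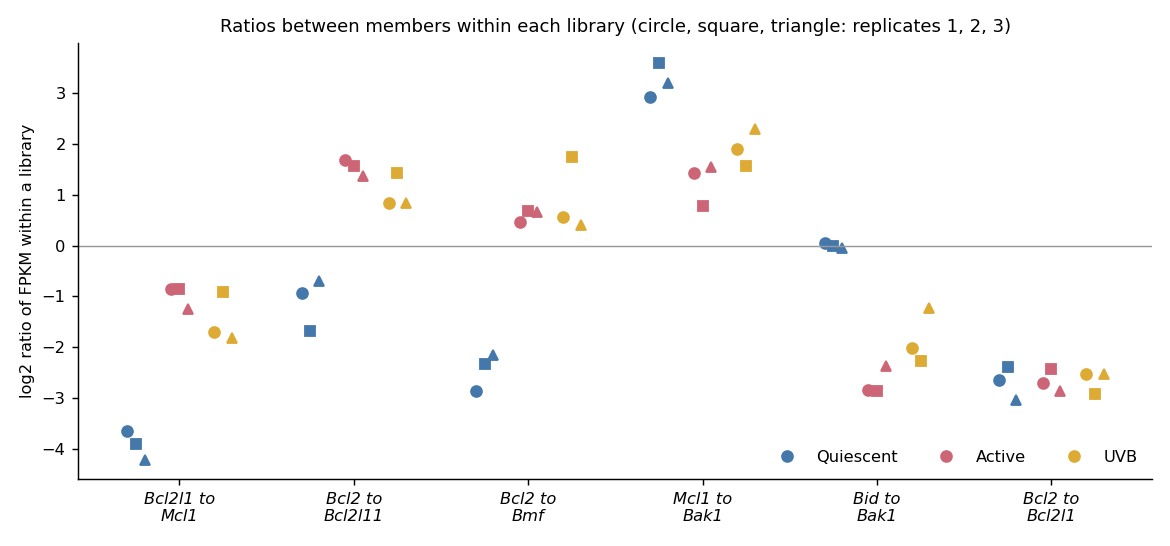
Log2 ratio of FPKM between pairs of members within each library (vertical axis), with groups by colour and replicates 1, 2 and 3 as circle, square and triangle. Bcl2l1 to Mcl1 and Bcl2 to Bcl2l11 are lowest in Quiescent, Bid to Bak1 is near 0 in Quiescent and between -2.85 and -1.23 elsewhere, and Bcl2 to Bcl2l1 overlaps in the 3 groups.

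Some members share exon sequence with a neighbour, and no source used here says whether the authors counted by strand. Bid shares 628 of its 3550 exon bases with Bcl2l13 on the opposite strand, in the GENCODE M21 annotation. Bcl2l13 rose from 45.8 ± 1.31 CPM in Quiescent to 84.9 ± 7.54 in Active (edgeR adjusted p = 0.000477) and 65.6 ± 11.4 in UVB (edgeR adjusted p = 0.0109), opposite to Bid. Bak1 shares 614 of 2407 exon bases with Ggnbp1, which had 12 to 56 fragments per library, and Bad shares 524 of 2558 with Gpr137. Neither partner was called in any comparison. Bcl2 and Bcl2l2 share 558 of 9157 and 594 of 4462 exon bases with D630008O14Rik and Gm20521, which were not analysed here.

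The genes most like a member in pattern were found by the root mean square difference between centred log2 CPM values over the 9 libraries. For Bcl2, among 10985 candidates, these were Cd44, a hyaluronan receptor, at 0.144, Kifc3, a kinesin, at 0.154 and Sms, spermine synthase, at 0.19, while the SD of Bcl2 itself was 1.06. For Bcl2l11, with an SD of 0.607, they were Pdxk at 0.186, Plekhg5 at 0.223 and Efcab4a at 0.226. Bmf, with an SD of 0.836, was followed most closely by Gstt2 at 0.229 and Hdac11 at 0.256, and Bik, with an SD of 0.704, by Gemin6 at 0.211, Mrto4 at 0.244 and Bop1 at 0.249. The neighbours of Bcl2l11, Bmf and Bik fitted less closely relative to the member's own spread than those of Bcl2.

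The rest of the pathway was described by 5 lists, counted with TMM scaling. Of all genes tested, 29.1% rose and 29.2% fell in Active against Quiescent, and 25.8% rose and 23.2% fell in UVB against Quiescent. Of 12 tested among 14 other BCL2 family and BH3-only genes, 5 rose and 2 fell in Active against Quiescent and 6 rose and 2 fell in UVB against Quiescent, or 6 and 1, and 8 and 0, by library size alone. Their median log2 fold changes were 0.30 and 0.76, beside 0.01 and 0.02 over all genes. Bax, the other effector, rose with Bak1, from 40.6 CPM in Quiescent to 114.2 in Active (log2 fold change 1.49 ± 0.11, edgeR adjusted p = 1.42e-05) and 80.7 in UVB (0.99 ± 0.11, edgeR adjusted p = 0.000179). It was lower in UVB than in Active by -0.50 ± 0.11 (edgeR adjusted p = 0.0143), a call lost without Active replicate 2 (0.06). Bnip3, a BH3-like mitophagy receptor, fell from 59.6 CPM to 20.1 in Active and 28.0 in UVB (edgeR adjusted p = 0.000203 and 0.00209), the latter not called by library size alone (log2 fold change -0.38, edgeR adjusted p = 0.134). Bbc3, the gene of PUMA, stood at 10.6, 11.14 and 10.47 CPM and was called in no comparison.

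Pmaip1, the gene of NOXA, which neutralises MCL1, showed the same high library as Bcl2l11. It stood at 5.28, 25.02 and 3.42 CPM in Quiescent, 4.67, 6.53 and 4.05 CPM in Active, then 33.2, 17.8 and 28.8 CPM in UVB. Quiescent replicate 2 lay inside the UVB range, and UVB lay above all Active libraries. It was higher in UVB than in Active by 2.39 ± 0.68 on the log2 scale (edgeR adjusted p = 0.0342), a call lost without any single Active library and without UVB replicate 1 or 3 (edgeR adjusted p from 0.0689 to 0.106). Against Quiescent the UVB difference was 1.25 (edgeR adjusted p = 0.143), and 2.602 without Quiescent replicate 2 (edgeR adjusted p = 0.00102).

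Bcl2a1a, a survival gene of blood cells with close copies whose counts are uncertain, had 0 fragments in every Quiescent library, 3, 5 and 4 in the Active ones, and 93, 39 and 45 in UVB. Taking 3 fragments over the Quiescent group as the limit, 0.0506 CPM, it was at least 38.6-fold higher in UVB. T cell, myeloid and mast cell markers were also higher in UVB than in Active, at 11.6 to 19.0, 259 to 446 and 55.4 to 108 CPM, against 1.78 to 3.08, 8.66 to 23.4 and 5.15 to 9.97 CPM in Active. Their part in the Bcl2a1a and Pmaip1 levels was not tested.

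Downstream of the mitochondria, 4 of the 12 apoptosome and caspase genes rose and 3 fell in Active, and the counts in UVB against Quiescent were the same. Beside them stand 58.3% of all genes called in either direction in Active and 49% in UVB. Cycs, which encodes cytochrome c, rose from 49.3 CPM to 129.9 in Active and 80.3 in UVB (edgeR adjusted p = 7.21e-05 and 0.00421). Casp9, the initiator caspase of the apoptosome, was called in no comparison, at 20.9 CPM in Quiescent, 22.0 in Active and 22.3 in UVB. Apaf1, its scaffold, fell in Active by -0.46 ± 0.14 (edgeR adjusted p = 0.0189), but stood at 0.29 by library size alone and lost its call without Quiescent replicate 1 or Active replicate 1 or 3. The list's median log2 fold changes were 0.10 and 0.08. Scaled by library size alone, 9 of the 12 were called higher and 0 lower in both comparisons.

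Of 7 tested among 8 inhibitor of apoptosis genes, 1 rose and 4 fell in Active against Quiescent, and 2 rose and 2 fell in UVB, or 3 and 3, and 3 and 0, by library size alone. Of all genes tested, 29.1% rose and 29.2% fell in Active, and 25.8% rose and 23.2% fell in UVB. The list's median log2 fold changes were -1.31 and 0.67. Birc5, which encodes survivin, a protein of dividing cells, rose from 1.76 CPM to 61.0 in Active and 42.1 in UVB (log2 fold changes 5.10 ± 0.44 and 4.57 ± 0.43, edgeR adjusted p = 2.39e-05 and 7.3e-05). Birc3, a ubiquitin ligase of tumour necrosis factor signalling, fell 10.2-fold in Active (edgeR adjusted p = 0.000261) and 2.93-fold in UVB (edgeR adjusted p = 0.014). Without Quiescent replicate 2, the library high in myeloid markers, these were 6.42 and 1.85 times, and the UVB call was lost without UVB replicate 2 (edgeR adjusted p = 0.0513) and by library size alone (-0.85 on the log2 scale, 0.107). Xiap, the direct caspase inhibitor, was called in no comparison, at 101.7, 96.7 and 120.8 CPM.

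The death receptor branch feeds into Bid. Of 9 tested genes among 10, 0 rose and 7 fell in Active against Quiescent, with a median log2 fold change of -0.68, and 0 rose and 3 fell in UVB, with a median of -0.28. Over all genes 29.2% and 23.2% fell in these comparisons. By library size alone the list's counts were 2 higher and 2 lower in Active and 5 higher and 0 lower in UVB. Fas, a death receptor, fell from 23.4 CPM to 2.05 in Active (log2 fold change -3.51, edgeR adjusted p = 0.00056) and 7.88 in UVB (-1.57, edgeR adjusted p = 0.0275). Ripk1, the adaptor kinase, fell from 78.0 to 43.9 and 56.3 CPM (edgeR adjusted p = 0.000384 and 0.0102), but by library size alone was at -0.07 and 0.26 on the log2 scale. Casp8, which cleaves BID, stood at 37.2, 36.9 and 42.6 CPM and was called in no comparison.

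Among 17 regulators of the members, 9 rose and 4 fell in Active and 7 rose and 2 fell in UVB, against 13 or 14 higher and 0 lower by library size alone. With TMM scaling 29.1% of all genes rose and 29.2% fell in Active, and 25.8% rose and 23.2% fell in UVB. The list's median log2 fold changes were 0.53 and 0.29. Mitf, the lineage factor known to act on Bcl2, rose from 55.0 CPM in Quiescent to 210 in Active (log2 fold change 1.93, edgeR adjusted p = 0.00545), or 2.29-fold without Active replicate 1. In UVB it stood at 27.3 CPM, 1.01 below Quiescent on the log2 scale (edgeR adjusted p = 0.0876, and 0.0113 without Active replicate 1) and 2.94 below Active (edgeR adjusted p = 0.00407), where Bcl2 was at -0.20. That difference from Active was 7.70-fold, and 4.62-fold without Active replicate 1. Mitf is also among the melanocyte lineage markers, and its part in the Bcl2 level was not tested. Foxo3, the factor known to act on Bcl2l11, was called in no comparison, at 21.9, 21.9 and 26.3 CPM.

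Regulators of BAD and BAK are in the same list. Akt1, the kinase that phosphorylates BAD, rose from 182.6 to 327.3 CPM in Active (edgeR adjusted p = 0.000316), while Akt2 fell from 199.4 to 125 CPM in Active (edgeR adjusted p = 0.000238) and 106.1 in UVB (8.8e-05), although by library size alone it was at 0.07 in Active and -0.19 in UVB, neither called. Vdac2, a mitochondrial channel that holds BAK, rose beside Bak1 from 98.2 to 177.5 CPM in Active and 144.2 in UVB (edgeR adjusted p = 0.000222 and 0.00342).

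Between UVB and Active, calls were made in each list, beside 14.8% of all genes called higher in UVB and 9.19% called lower. Of the other BCL2 family genes 4 of 12 were higher in UVB and 1 lower, of the apoptosome genes 0 higher and 2 of 12 lower, and of the regulators 1 higher and 3 of 17 lower. Of the inhibitor of apoptosis genes 5 of 7 were higher in UVB and 0 lower, among them Birc3 (log2 fold change 1.798, edgeR adjusted p = 0.0185) and Naip2 (3.44, edgeR adjusted p = 0.0134). Of the death receptor branch 4 of 9 were higher and 1 lower, among them Fas (1.94, edgeR adjusted p = 0.0271) and Tnfrsf10b (0.89, edgeR adjusted p = 0.0106), both higher. These counts rested on single libraries. Over the fits that left out a library, the higher calls ran from 1 to 5 for the other BCL2 family genes. Without Active replicate 2, 0 genes of the inhibitor or death receptor lists were called. Without Active replicate 1, 1 gene of each was higher, and without UVB replicate 1 these were 1 and 2.

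How the libraries were scaled decided the direction of the smaller differences. By library size alone the median of all genes stood at 0.76 on the log2 scale in Active against Quiescent and 0.74 in UVB against Quiescent, instead of 0.01 and 0.02. Under that scaling Bcl2, Bcl2l1, Bak1 and Bik were called higher in both comparisons, Bid was called lower in Active, Bcl2l2 was called higher in both, and Bad was called higher in Active. Of the other genes above that were not called with TMM, Casp9, Casp8, Xiap and Foxo3 were called higher in both comparisons, Bbc3 in Active and Pmaip1 in UVB. Changes with TMM scaling are relative to the bulk of the genes, and the ratios and shares within a library are free of this choice.

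**Figure D5:**
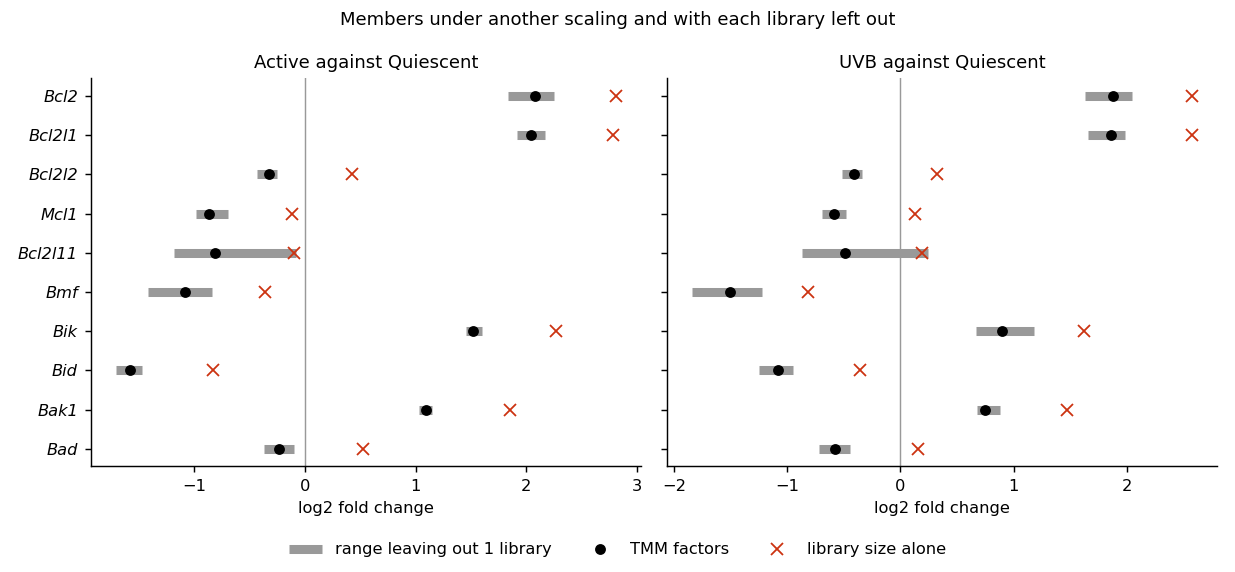
Log2 fold change of each member (horizontal axis) in Active against Quiescent and in UVB against Quiescent. Dots show TMM factors, crosses library size alone, and grey bars the range over fits that leave out 1 library. Against Quiescent the crosses lie to the right of the dots for all 10 members, and the sign turns for Bcl2l2 and Bad in both comparisons and for Mcl1 and Bcl2l11 in UVB.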

How the data were processed

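RNA was measured in 9 libraries, grouped by their labels. The submitters' processing notes name cutadapt 1.8, TopHat2 2.0.13, Cuffdiff 2.2.1 and mm10, with no source used here for their settings, annotation or strand handling. Per the file headers, the deposited table follows Cuffdiff's layout for values per gene and library. It holds the authors' estimated counts (fragments before scaling, 1.08% of values not whole to within 1e-06, none of them in members) and the authors' FPKM, scaled between libraries by their own factors. Cuffdiff marked 18 values as failed, 0 of them in members.

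After rounding, counts entered 1 joint fit of all 9 libraries in edgeR 4.0.16 (R 4.3.3), with TMM factors and the quasi-likelihood F test. Function filterByExpr kept 15078 genes and removed 8283. Adjusted p-values are Benjamini-Hochberg, two-sided, over all genes tested, with a threshold of 0.05. The SE is the log2 fold change divided by the square root of F, and intervals are 95%. Quiescent libraries had TMM factors of 0.66 to 0.748, the others of 1.163 to 1.225. The replicate coefficient of variation was 0.28. Within groups no 2 libraries agreed to within sampling noise (chi-square per degree of freedom 25.8 to 121.1), so each was kept. Limits for 0 fragments cover counting error only, since amplified copies are not independent molecules.

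Alternatives were other scaling factors, DESeq2 1.42.0, limma 3.58.1 with log2(FPKM + 1) or log2(FPKM + 0.1), testing without a filter, at least 50 counts in 3 libraries, only the 6 libraries compared, a replicate block and each library left out. For shares, counts with 1 length factor per gene and sums without Mcl1 were tried. The tests were tried on simulated data.

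The members and all lists were chosen with earlier results of these data known, so no p is given for a list. All members are named, with, from each pathway list, the 2 higher and 2 lower genes of smallest adjusted p, and Bax, Bbc3, Pmaip1, Casp9, Apaf1, Casp8, Xiap, Birc5, Mitf and Foxo3. The text gives a part of these, and 1 gene of the rule is not reported here. Pattern neighbours are the 3 closest tested genes with a mean log2 CPM of at least 2, predicted genes left out, and are given for Bcl2, Bcl2l11, Bmf and Bik, with 1 left out. Adgre1 was matched by its older symbol Emr1. Promoters and positions are from RefSeq (GRCm38.p6), and exon overlaps from GENCODE M21.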

Additional observations from a re-analysis of the deposited data

How the results depend on the processing

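Among 19 alternatives per comparison, Bcl2, Bcl2l1, Bik, Bid and Bak1 kept their call in Active against Quiescent in 19, Mcl1 in 18, Bcl2l2 in 9 and Bmf in 7. In UVB against Quiescent, Bcl2, Bcl2l1 and Bak1 kept it in 19, Bid in 18, Bmf in 17, Bcl2l2 in 16, and Mcl1 and Bad in 14. Leaving out each library gave 2 to 4 members called lower in the first comparison and 2 to 5 in the second.

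With library size alone, genes called higher and lower in Active against Quiescent numbered 8651 and 2208 (79.7% higher, against 50% with TMM) and members called lower 1. In UVB against Quiescent they numbered 8746 and 1247 (87.5% higher, against 52.7%), with 5 members higher and 0 lower. The log2 fold change then turned to 0.43 for Bcl2l2, 0.53 for Bad, 0.29 for Apaf1, 0.75 for Casp8, 0.68 for Xiap, 0.75 for Foxo3, 0.15 for Bnip3l, 0.34 for Htra2 and 0.073 for Akt2 in Active. In UVB it turned to 0.32 for Bcl2l2, 0.13 for Mcl1, 0.19 for Bcl2l11 (not called in either fit), 0.15 for Bad, 0.51 for Apaf1, 0.10 for Bnip3l, 0.16 for Diablo, 0.20 for Htra2, 0.018 for Birc2, 0.26 for Ripk1 and 0.35 for Btrc. This scaling shifts all genes by construction.

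UVB against Active depended most on single libraries, with 1452 to 4226 genes called, 999 to 2548 higher and 453 to 1678 lower when 1 was left out. The lowest counts came without Active replicate 2, and 1806 and 1938 genes were called without Active replicate 1 and UVB replicate 1. The cause was not tested. The replicate block gave 8223, 6809 and 2830 genes called in the 3 comparisons against 8786, 7393 and 3612, and Bmf was not called in Active (edgeR adjusted p = 0.059). Same-numbered libraries deviated together with r from -0.171 to 0.231 in 9 pairs, and 4 of 9 libraries correlated best with their own number, so the numbers were not treated as pairs. Bmf in Active was also not called with library size alone (0.472), upper quartile factors (0.0518) or limma on FPKM (0.0681 and 0.0755), and Bcl2l2 without a filter (0.0644) or with only 6 libraries (0.0642). Member shares from counts stayed within 1 SD of those from FPKM, and leaving Mcl1 out of the sum moved all 27 shares of the other members by construction. Bik had 15 to 84 fragments per library, which limits its precision.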
